A study of Mus musculus with 9 samples.

Results

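The BCL2 family controls cell death by the mitochondrial route, and 10 of its genes were followed here by name among the 55536 genes of a count table from mouse spleen B cells: Bcl2, Bcl2l1, Mcl1 and Bcl2a1b, which keep cells alive, Bcl2l11, Bbc3, Bmf and Bad, which promote death, and Bax and Bak1, which carry it out. The RNA came from 5 p52Ki libraries, whose titles read p52ki/ki for a knock-in on both alleles, and from 4 WT libraries. The p52 protein is an NF-kB subunit cut from the p100 precursor that Nfkb2 encodes, and the series title names a complex of it with ETS1. All 9 samples were labelled as spleen pre-GC B cells, that is, B cells before the germinal centre. Not given in the sources used here were the construction of the allele, any immunisation, the age of the mice and the sort. The labels also do not tie each library to its own mouse, so the p-values rest on sample-to-sample spread that could be technical.

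In this family, prosurvival proteins hold the effectors BAX and BAK in check at the outer mitochondrial membrane, and BH3-only proteins release that hold by binding the prosurvival proteins in a groove. Freed effectors open the membrane, cytochrome c leaves, and the apoptosome activates caspases. Resting B cells are known for high BCL2 and germinal centre B cells for low BCL2 and dependence on MCL1. NF-kB factors are known activators of Bcl2a1 and Bcl2l1 transcription in lymphocytes.

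Of the 10 genes, 1 passed the threshold for a difference between p52Ki and WT: Bcl2 was higher in p52Ki, and 0 were lower (edgeR's quasi-likelihood test, adjusted p under 0.05). Over all 12849 genes tested, 8.53% passed in either direction, 4.49% higher and 4.04% lower in p52Ki, so 1 of 10 is near the background share. That near-even split moved when a library was left out, with 344 to 551 genes higher and 262 to 557 lower, against 577 and 519 with all libraries. At an unadjusted p under 0.05, 3 of the 10 were higher and 0 lower, where 21.4% of all genes passed, 10.8% higher and 10.6% lower. DESeq2, limma-voom and limma-trend each called the same number as edgeR, 1 higher and 0 lower. All 10 passed the filter on low counts. Log2 fold changes were above 0 for 5 and below 0 for 5, with a median of 0.05 beside 0.03 over all genes tested. Bcl2 was also the 1 gene of the 10 whose p52Ki libraries did not overlap the WT libraries, a separation seen for 13.8% of all genes tested, 7.3% with p52Ki above WT and 6.53% with p52Ki below WT.

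Total counts ran from 4492160 to 6647650 in p52Ki and from 7368604 to 7937579 in WT, and 15504 to 16634 genes had a count in p52Ki libraries, against 14033 to 14793 in WT libraries. Of 8 germinal centre B cell markers, 0 were higher and 6 lower in p52Ki, with summed levels of 838 to 2063 CPM (counts scaled to a common library size, which edgeR's TMM method adjusts for composition) in p52Ki and 3209 to 4371 CPM in WT. Of 7 resting follicular B cell markers, 5 were higher and 0 lower, summing to 1540 to 2223 CPM in p52Ki and 727 to 1099 CPM in WT. Both marker lists thus differed between the genotypes beside every BCL2 family value below, and their part in those values was not tested. The 6 B lineage markers summed to 10112 to 13766 CPM in p52Ki and 8957 to 10116 CPM in WT, with 1 called higher. T cell markers summed to 76.9 to 201 CPM in p52Ki and 188 to 256 CPM in WT, nearly all of it Lck, while Cd3e, part of the T cell receptor complex, averaged 0.0613 and 0.366 CPM. Natural killer markers summed to at most 6.24 CPM in p52Ki and 7.61 CPM in WT, and neutrophil markers to at most 1.41 and 5.97 CPM, with S100a8 and S100a9 at 0. Macrophage, monocyte and dendritic cell markers summed to 79.9 to 151 CPM in p52Ki and 73.9 to 144 CPM in WT. Of these Flt3 was called lower, while Lyz2 averaged 28.5 ± 21.5 CPM in p52Ki and 7.52 ± 4.17 CPM in WT, without overlap and not called (edgeR adjusted p = 0.0685), and Itgax had 74 reads in p52Ki and 0 in WT. Plasma cell markers summed to 674 to 1256 CPM in p52Ki and 1436 to 1894 CPM in WT, mostly Jchain and Xbp1, and Jchain was called lower. Sdc1 of the same list went the other way, at 22.0 ± 11.5 CPM in p52Ki and 1.21 ± 2.42 CPM in WT, without overlap and not called (edgeR adjusted p = 0.0762). Among the 5 stromal markers Col1a1, Col1a2, Col3a1 and Cxcl12 were at 0, and the sum, 112 to 265 CPM in p52Ki and 39.2 to 105 CPM in WT, was Pecam1 alone, which was called higher.

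The start of Bcl2 is shown because this is the member that differed and because the study concerns p52 and ETS1. The window covers 250 bases before to 50 after the RefSeq start on GRCm38.p6, chr1:106714241-106714540, minus strand, with matches in capitals. The patterns searched, on both strands, were GGG and CC with any 5 bases between them for NF-kB, and CCGGAA or CAGGAA for ETS factors.
Bcl2: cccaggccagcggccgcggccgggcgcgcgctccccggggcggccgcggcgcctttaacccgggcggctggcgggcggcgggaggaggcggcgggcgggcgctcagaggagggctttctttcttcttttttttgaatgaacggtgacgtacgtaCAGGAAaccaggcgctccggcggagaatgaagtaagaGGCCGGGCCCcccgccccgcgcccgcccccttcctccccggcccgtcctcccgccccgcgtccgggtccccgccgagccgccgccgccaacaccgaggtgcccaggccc
The window held 1 match to the NF-kB pattern, read on the opposite strand, whose leftmost printed base is at position -59 from the start, and 1 match to CAGGAA at position -96. The matches do not overlap. Of the 18 windows of this length that RefSeq gives for the 10 genes, 15 matched the NF-kB pattern, 4 CCGGAA and 5 CAGGAA. Over all 32851 windows of the table the shares were 50.8%, 14.9% and 30.6%. A match is a run of letters and not a measured site.

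The other sequence that bears on the values is that of Bcl2a1b, which encodes the prosurvival protein A1 and has near-identical copies. Its 519 coding bases differed from those of Bcl2a1a at 11 positions (97.9% identity) and from those of Bcl2a1d at 6 (98.8%). The first 60 coding bases of the 3 copies, all on chromosome 9, hold 6 of the 12 positions at which any of them differ, given here in capitals.
Bcl2a1a: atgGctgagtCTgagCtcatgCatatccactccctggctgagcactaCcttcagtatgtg
Bcl2a1b: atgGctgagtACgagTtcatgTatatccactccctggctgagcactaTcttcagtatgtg
Bcl2a1d: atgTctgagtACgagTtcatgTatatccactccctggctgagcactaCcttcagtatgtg
Of all windows of a read's length in the Bcl2a1b transcript, 93 of 667 (13.9%) also occurred in another copy. In addition, 401 of the 817 exon bases of Bcl2a1b are shared with the overlapping gene Gm29094 on the same strand, and the sources used here do not say how reads in such stretches were assigned. The values of Bcl2a1b are therefore uncertain.

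Bcl2, the founding prosurvival gene of the family (ENSMUSG00000057329, GRCm38 chromosome 1, 106538178 to 106714274), stood at 36.0, 48.1, 31.5, 37.5 and 58.0 CPM in p52Ki replicates 1 to 5, against 1.71, 14.0, 9.67 and 5.97 CPM in WT replicates 1 to 4. Every p52Ki library was above every WT library. The reads behind these values numbered 248, 273, 195, 245 and 267 in p52Ki and 13, 101, 68 and 45 in WT. The means were 42.2 ± 10.7 CPM in p52Ki and 7.83 ± 5.23 CPM in WT (SD, n = 5 and 4), and Bcl2 rose in p52Ki by a log2 fold change of 2.43 ± 0.51 (SE; 95% interval 1.32 to 3.54; edgeR adjusted p = 0.0152). WT replicate 1, with 13 reads, was the lowest library, and without it the log2 fold change was 2.09. In bulk RNA, more cells that express a gene and more RNA per cell cannot be told apart.

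The libraries were made by a method that does not mark strand. D630008O14Rik, annotated as antisense to Bcl2, shares 558 of the 9157 exon bases of Bcl2. It had 75, 64, 41, 59 and 78 reads in p52Ki replicates 1 to 5, against 0, 47, 0 and 33 in WT replicates 1 to 4. In CPM its p52Ki libraries, at 6.62 to 16.9, also lay above its WT libraries, at 0 to 6.50, though the highest WT library was close to the lowest p52Ki library. Its log2 fold change was 2.00 ± 1.19 and the test was not passed (edgeR adjusted p = 0.374). Reads from either strand within the shared bases cannot be told apart.

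The 5 genes whose log2 CPM followed that of Bcl2 most closely over the 9 libraries, after centring each gene on its mean, were Serpinb1a, Fam43a, Ddx58, Lgals9 and Xaf1, at root mean square differences of 0.35, 0.36, 0.37, 0.39 and 0.45. Serpinb1a encodes a protease inhibitor, Lgals9 a galactose-binding lectin and Ddx58 the viral RNA sensor RIG-I. Serpinb1a averaged 238 ± 60.7 CPM in p52Ki and 38.9 ± 21.8 CPM in WT. The other four averaged 221 ± 12.9, 130 ± 27.5, 251 ± 59.5 and 52.2 ± 18.5 CPM in p52Ki, against 37.3 ± 20.6, 23.5 ± 17.8, 62.6 ± 35.6 and 11.6 ± 8.92 CPM in WT. All 5 were the nearest genes under DESeq2 size factors as well. Size factors shift all genes of a library nearly alike and largely drop out of these differences, so this is no independent check.

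Mcl1, a short-lived prosurvival protein (chromosome 3, 95658788 to 95663176), was measured at 227, 148, 167, 103 and 184 CPM in p52Ki replicates 1 to 5, against 126, 107, 107 and 117 CPM in WT replicates 1 to 4. In p52Ki 4 libraries lay above all WT libraries, and replicate 4 lay below them all. The means were 166 ± 45.7 CPM in p52Ki and 114 ± 9.36 CPM in WT, with a log2 fold change of 0.54 ± 0.21 (95% interval 0.08 to 1.00) that did not pass (edgeR adjusted p = 0.150). Without p52Ki replicate 4 the log2 fold change was 0.69 and passed (edgeR adjusted p = 0.0309).

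Bcl2l1, which encodes BCL-XL (chromosome 2, 152780668 to 152831728), stood at 86.5, 54.8, 84.9, 48.6 and 53.7 CPM in p52Ki, against 73.4, 52.6, 13.8 and 41.3 CPM in WT. The genotypes overlapped, and WT replicate 3 was the lowest library of all 9. The log2 fold change was 0.54 ± 0.40 (95% interval -0.33 to 1.40; edgeR adjusted p = 0.495). Bcl2a1b (chromosome 9, 89199209 to 89207827) had 4.94, 3.88, 4.20, 9.65 and 6.52 CPM in p52Ki, against 8.79, 7.06, 8.96 and 9.56 CPM in WT, where p52Ki replicate 4 was above every WT library and the other p52Ki libraries below them. Its log2 fold change was -0.56 ± 0.53 (95% interval -1.71 to 0.60; edgeR adjusted p = 0.619). The summed level of the copies Bcl2a1a, Bcl2a1b and Bcl2a1d, a sum chosen after the values were seen, was 25.3 ± 7.63 CPM in p52Ki and 23.6 ± 8.46 CPM in WT, most of it from Bcl2a1d.

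**Figure D1:**
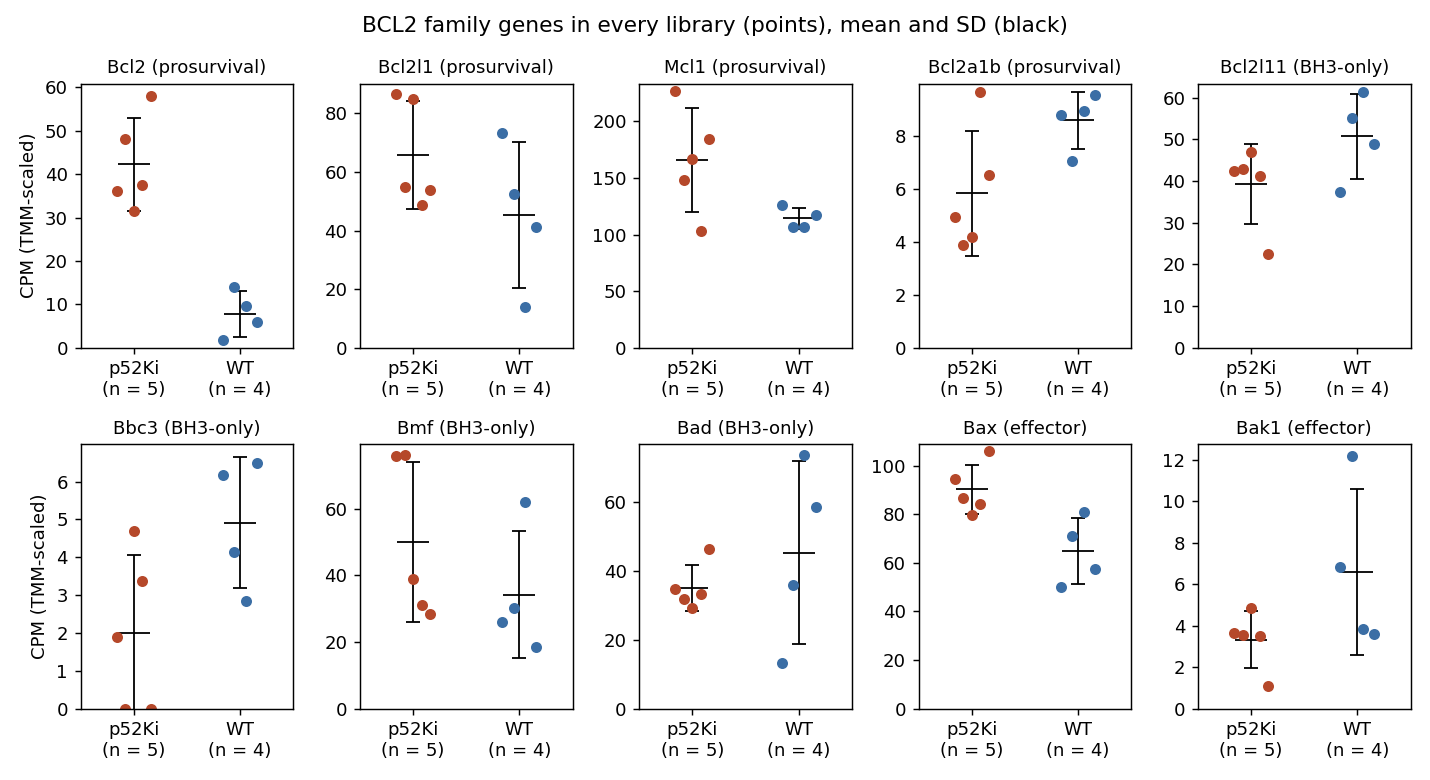
Level of each of the 10 BCL2 family genes in CPM on TMM-scaled library sizes, 1 point per library, with p52Ki (n = 5) left of WT (n = 4) and the mean and SD in black. For Bcl2 the 5 p52Ki libraries, from 31.5 to 58.0 CPM, sit above the 4 WT libraries, from 1.71 to 14.0 CPM, while the points of the other 9 genes overlap.

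Levels of different genes were compared per kilobase of exon. Mcl1 made up the largest part of the 4 prosurvival transcripts in every library, 64.2% ± 6.48 of their summed CPM per kilobase in p52Ki and 61.5% ± 4.34 in WT. Bcl2 held 4.13, 8.05, 4.52, 7.24 and 7.92% in p52Ki replicates 1 to 5, against 0.292, 2.89, 2.28 and 1.17% in WT replicates 1 to 4. Its share was thus higher in each p52Ki library than in each WT library, yet it was the smallest of the 4 in every library but p52Ki replicate 2, where Bcl2a1b held 7.27%. That place depended on the length used. With the longest transcript as length, Bcl2 in p52Ki replicate 5 was at 8.07 CPM per kilobase, just above Bcl2a1b at 7.98. Bcl2l1 held 19.2% ± 3.49 in p52Ki and 17.4% ± 8.11 in WT, and Bcl2a1b 10.2% ± 6.11 and 19.5% ± 3.49. The summed level was 74.6 ± 14.7 CPM per kilobase in p52Ki and 54.6 ± 7.27 in WT. These shares are descriptions without a test.

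**Figure D2:**
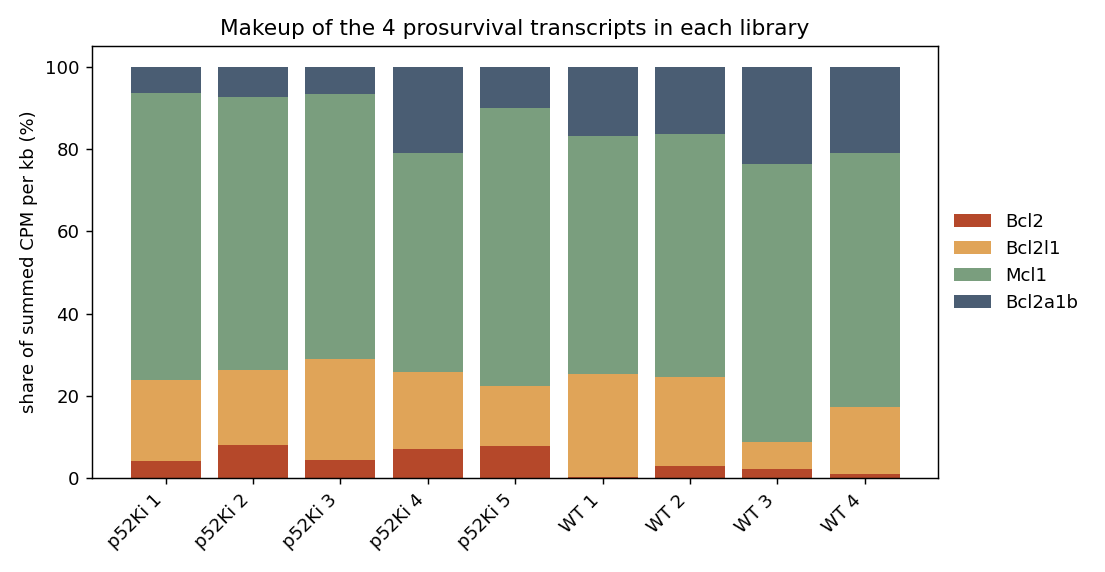
Share of each prosurvival gene in the summed CPM per kilobase of Bcl2, Bcl2l1, Mcl1 and Bcl2a1b, in percent, 1 bar per library, with p52Ki left of WT. The Bcl2 segment runs from 4.13 to 8.05% in p52Ki and from 0.292 to 2.89% in WT, beside a Mcl1 segment of 53.2% or more in each bar.

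Bcl2l11 encodes BIM, a BH3-only protein that binds every prosurvival member and is needed for the deletion of self-reactive B cells (chromosome 2, 128126038 to 128162547). It stood at 42.5, 42.9, 47.0, 41.1 and 22.6 CPM in p52Ki, against 37.3, 55.2, 61.4 and 48.8 CPM in WT. The ranges overlapped, with p52Ki replicate 5 the lowest library. The means were 39.2 ± 9.55 CPM in p52Ki and 50.7 ± 10.3 CPM in WT, and the log2 fold change was -0.37 ± 0.26 (95% interval -0.94 to 0.21; edgeR adjusted p = 0.477). Per kilobase, Bcl2l11 stood over Bcl2 by a ratio of 1.35, 1.02, 1.70, 1.25 and 0.444 in p52Ki replicates 1 to 5, against 24.9, 4.51, 7.25 and 9.33 in WT replicates 1 to 4. The ratio was thus at most 1.70 in p52Ki libraries and at least 4.51 in WT libraries. Bcl2, its lower term, was separated between the genotypes by itself. Over Mcl1 the ratio of Bcl2l11 was 0.0521 to 0.170 in p52Ki and 0.126 to 0.244 in WT, which overlapped. Bcl2l1 over Bcl2 also overlapped, at 1.85 to 5.39 in p52Ki and 2.85 to 85.9 in WT. Mcl1 over Bcl2 did not, at 7.34 to 16.9 in p52Ki and 20.4 to 198 in WT. These ratios are descriptions without a test.

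Bmf, a BH3-only protein linked to the cytoskeleton (chromosome 2, 118528757 to 118549687), had 75.8, 76.2, 38.8, 31.0 and 28.5 CPM in p52Ki, against 25.9, 30.2, 61.9 and 18.6 CPM in WT. Replicates 1 and 2 of p52Ki stood above the rest of their genotype, as WT replicate 3 did in its own. The log2 fold change was 0.55 ± 0.42 (95% interval -0.37 to 1.48; edgeR adjusted p = 0.513). Bad, whose protein is held inactive by phosphorylation (chromosome 19, 6941861 to 6951899), had 34.7, 31.7, 29.1, 33.2 and 46.3 CPM in p52Ki, against 13.1, 36.0, 73.7 and 58.5 CPM in WT. The WT libraries enclosed all p52Ki values. Its log2 fold change was -0.37 ± 0.40 (95% interval -1.25 to 0.51; edgeR adjusted p = 0.677), and it moved to -0.68 without WT replicate 1 and to -0.01 without WT replicate 3. Gpr137 shares 524 exon bases with Bad on the other strand.

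Bbc3 encodes PUMA, a BH3-only protein and a classic p53 target (chromosome 7, 16308393 to 16318205). It was near the limit of counting, at 1.89, 0, 4.68, 3.37 and 0 CPM in p52Ki, against 6.17, 4.15, 2.84 and 6.50 CPM in WT. The 0 counts of p52Ki replicates 2 and 5 allow up to 0.529 and 0.652 CPM, the level of 3 counts in these libraries, for counting error only. With 64 reads over 5 p52Ki libraries and 146 over 4 WT libraries, the log2 fold change was -1.29 ± 1.19 and its 95% interval ran from -3.88 to 1.30 (edgeR adjusted p = 0.605).

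Bax (chromosome 7, 45461697 to 45466898) was measured at 94.4, 86.6, 79.9, 84.4 and 106 CPM in p52Ki, against 50.0, 71.1, 80.9 and 57.6 CPM in WT. Only WT replicate 3 reached the p52Ki range, and it exceeded the lowest p52Ki library. The means were 90.2 ± 10.2 CPM in p52Ki and 64.9 ± 13.8 CPM in WT, and the log2 fold change was 0.47 ± 0.19 (95% interval 0.05 to 0.90), short of the threshold (edgeR adjusted p = 0.173). With an offset for GC and length it was 0.72 and passed (edgeR adjusted p = 0.0338). Bak1 (chromosome 17, 27019810 to 27029009) was far lower, at 3.63, 3.53, 4.84, 3.52 and 1.09 CPM in p52Ki, against 6.83, 12.2, 3.84 and 3.58 CPM in WT, with a log2 fold change of -0.98 ± 0.70 (95% interval -2.51 to 0.54; edgeR adjusted p = 0.474). Per kilobase, Bax stood over Bak1 by a ratio of 25.2 to 149 in p52Ki and 8.92 to 32.2 in WT. The genotypes overlapped in that ratio. Ggnbp1 lies on the strand opposite to Bak1 and shares exon bases with it.

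**Figure D3:**
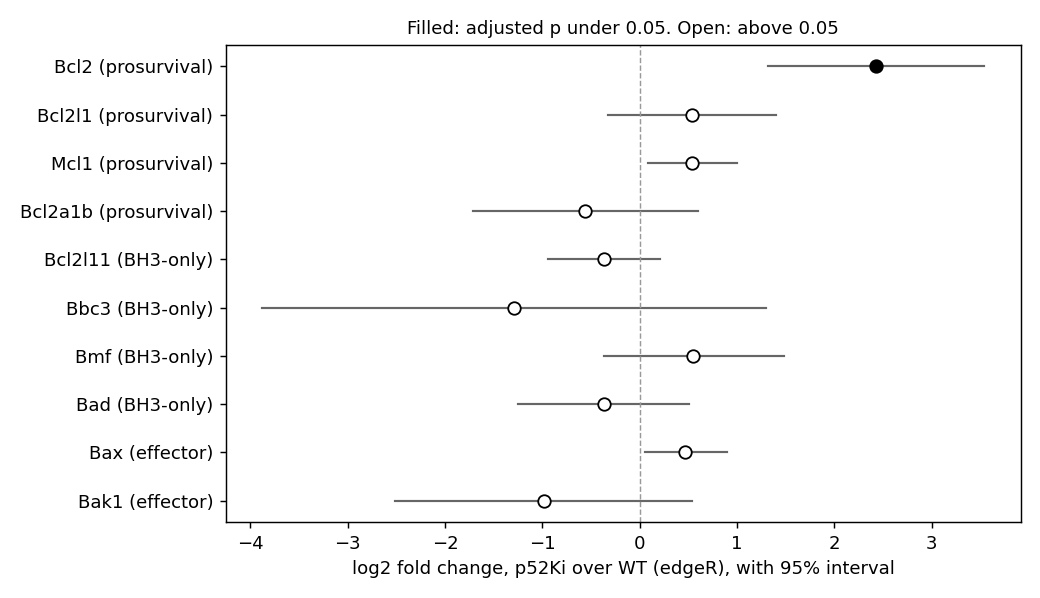
Log2 fold change of each BCL2 family gene, p52Ki over WT, with its 95% interval from edgeR's quasi-likelihood fit to 5 p52Ki and 4 WT libraries. Bcl2, the filled point at 2.43, passed an adjusted p of 0.05, and the 9 open points did not, with Bbc3 and Bak1 having the widest intervals.

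In order of level per kilobase of exon, p52Ki libraries held Bax at 57.2 ± 6.44 and Mcl1 at 48.5 ± 13.4 CPM per kilobase, then Bcl2l1 at 14.3, Bad at 13.7, Bmf at 9.52, Bcl2a1b at 7.14, Bcl2l11 at 4.88, Bcl2 at 4.61, Bak1 at 1.38 and Bbc3 at 0.936. Neighbours in this order overlapped over libraries, except for the steps below Mcl1 and below Bcl2. In WT libraries Bax at 41.2 ± 8.74 and Mcl1 at 33.4 ± 2.74 also led, followed by Bad at 17.7, Bcl2a1b at 10.5, Bcl2l1 at 9.87, Bmf at 6.49, Bcl2l11 at 6.31, Bak1 at 2.74, Bbc3 at 2.31 and Bcl2 at 0.855. Here the step below Mcl1 was the one without overlap. These steps depended on the length used. With the longest transcript as length, Mcl1 overlapped the next gene and Bax lay above Mcl1 without overlap, in both genotypes. In p52Ki the steps below Bad and below Bcl2 were then without overlap as well. Bcl2 was rank 8 in p52Ki and rank 10 in WT with either length.

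The rest of the BCL2 family comprised 16 further genes, of which 9 passed the filter and 0 were called in either direction by edgeR. At an unadjusted p under 0.05, 1 was higher and 1 lower in p52Ki, and DESeq2 called 1 each way, limma-voom and limma-trend 0. Bid, the BH3-only protein that links death receptors to mitochondria, had 213, 269, 180, 260 and 189 CPM in p52Ki, against 233, 373, 379 and 352 CPM in WT. WT replicate 1 lay within the p52Ki range and the other WT libraries above it. With all libraries Bid missed the threshold (log2 fold change -0.59 ± 0.18, edgeR adjusted p = 0.0726), and it passed without WT replicate 1 (edgeR adjusted p = 0.0340). Bnip3l, a mitophagy receptor, had 89.7, 66.0, 90.4, 64.7 and 133 CPM in p52Ki, against 60.2, 56.3, 25.2 and 45.8 CPM in WT, without overlap, and a log2 fold change of 0.92 ± 0.30 (edgeR adjusted p = 0.0838). Bcl2a1c, Bcl2l10, Bok and Hrk had 0 counts in all 9 libraries.

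Downstream of the family, 3 of 17 apoptosome, caspase and inhibitor genes were lower in p52Ki and 0 higher, with a list median log2 fold change of -0.22. The list joins genes that promote death with inhibitors, so its median has no single reading. Among all genes tested, 4.49% were called higher and 4.04% lower, shares that also stand beside the counts of the lists below. Casp6, an executioner caspase, averaged 33.2 ± 7.76 CPM in p52Ki and 62.4 ± 7.65 CPM in WT (log2 fold change -0.91 ± 0.23, edgeR adjusted p = 0.0318). Birc5, or survivin, which acts in mitosis as well as survival, averaged 113 ± 30.7 and 218 ± 59.9 CPM (-0.95 ± 0.24, edgeR adjusted p = 0.0284). Vdac2, a mitochondrial porin that binds BAK, averaged 149 ± 14.1 and 226 ± 41.3 CPM (-0.60 ± 0.16, edgeR adjusted p = 0.0338). None of these calls held in every fit without 1 library: that of Casp6 was lost when p52Ki replicate 1, 3, 4 or 5 or WT replicate 1, 3 or 4 was left out (edgeR adjusted p up to 0.0868), that of Birc5 for p52Ki replicate 1, 3 or 5 or WT replicate 3 or 4 (up to 0.0855), and that of Vdac2 for p52Ki replicate 1, 2, 3 or 5 or WT replicate 1, 2 or 4 (up to 0.118). The list had 0 calls without p52Ki replicate 1, 3 or 5 or WT replicate 4, and 1 without WT replicate 1 or 3. At an unadjusted p under 0.05, 4 were lower and 2 higher, and DESeq2 called 1 higher. The 2 higher at the unadjusted p were Birc3, an inhibitor, and Diablo, named after their values were seen. Birc3 averaged 204 ± 15.2 CPM in p52Ki and 140 ± 35.9 CPM in WT, without overlap (0.54 ± 0.18, edgeR adjusted p = 0.0947). Diablo had a log2 fold change of 0.89 ± 0.41 (edgeR adjusted p = 0.232).

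Of 11 genes of the death receptor arm, 8 were tested, with a median of -0.29, and Fas was the 1 that fell (0 rose in edgeR, DESeq2 or either limma fit, and 0 at an unadjusted p under 0.05). Fas, the death receptor, stood at 45.2, 69.8, 77.8, 125 and 87.6 CPM in p52Ki, against 218, 169, 221 and 180 CPM in WT, without overlap (log2 fold change -1.28 ± 0.25, edgeR adjusted p = 0.0111). Fas is itself among the germinal centre markers above. Of 15 p53 pathway genes, 12 were tested and 0 were called by edgeR, DESeq2 or limma, with a median of 0.21, and 1 was higher at an unadjusted p under 0.05. Sesn1, a stress-induced regulator, had a log2 fold change of 0.80 ± 0.30 (edgeR adjusted p = 0.136), and Pidd1, an adaptor of caspase activation, -0.85 ± 0.41 (edgeR adjusted p = 0.261).

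Among 18 tested transcription factors listed as regulators of the family, 1 rose and 2 fell, with a median of 0.12. The action of each factor on the family was not tested. Rel, the NF-kB subunit c-Rel and a known activator of Bcl2a1 and Bcl2l1, had 375, 322, 406, 283 and 192 CPM in p52Ki, against 179, 164, 158 and 113 CPM in WT, and a log2 fold change of 1.04 ± 0.22 (edgeR adjusted p = 0.0154). Bcl2a1b and Bcl2l1 did not pass, with wide 95% intervals of -1.71 to 0.60 and -0.33 to 1.40. Whether Rel bears on either gene was not tested, and the values of Bcl2a1b are uncertain, as given above. Stat5a, a cytokine-driven activator, fell by 1.15 ± 0.24 on the log2 scale, and Mef2b, a germinal centre factor, fell by 1.16 ± 0.20 (edgeR adjusted p = 0.0148 and 0.00626). Without WT replicate 4, 2 of these genes rose. Foxo3, an activator of Bcl2l11 and Bbc3, was not called, at a log2 fold change of 1.66 ± 0.56 (edgeR adjusted p = 0.0980). Nfkb2 at 0.61 ± 0.21, Ets1 at 0.39 ± 0.18 and Bcl6 at -0.72 ± 0.26 were not called either (edgeR adjusted p = 0.0987, 0.232 and 0.113). Nfkb2 averaged 208 ± 40.9 CPM in p52Ki and 136 ± 34 CPM in WT, with overlap. Foxo3, Nfkb2, Ets1 and Bcl6 are named here after their values were seen.

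Of 26 partners and modifiers of BCL2 family proteins, 2 rose and 5 fell, with a median of -0.14. Ywhae, Ywhah and Ywhaq encode adaptors that sequester phosphorylated BAD in the cytosol. They averaged 277 ± 25.7, 410 ± 75.5 and 267 ± 32.8 CPM in p52Ki, against 500 ± 36.3, 708 ± 92.8 and 403 ± 15.3 CPM in WT, and fell by 0.85, 0.79 and 0.59 on the log2 scale (edgeR adjusted p = 0.00263, 0.0122 and 0.0166). The other four adaptor genes of the list, named after their values were seen, were not called. Of these Ywhaz, the most abundant, averaged 888 ± 97.6 CPM in p52Ki and 879 ± 52 CPM in WT, a log2 fold change of 0.01, and Ywhag, Ywhab and Sfn had log2 fold changes of -0.02, -0.41 and -0.71. The kinase gene Akt1, whose product phosphorylates BAD, fell by 0.89 (edgeR adjusted p = 0.0260), and Usp9x, a deubiquitinase that stabilises MCL1, fell by 0.72 (edgeR adjusted p = 0.0330). Itpr1, an IP3 receptor of the endoplasmic reticulum and a binding partner of BCL2, had 173, 98.6, 124, 82.4 and 108 CPM in p52Ki, against 38.1, 60, 35.4 and 44.5 CPM in WT, without overlap (log2 fold change 1.40 ± 0.25, edgeR adjusted p = 0.00802). Its relative Itpr2, named after its values were seen, rose by 0.65 ± 0.18 on the log2 scale (edgeR adjusted p = 0.0466). The call of Usp9x ended without any 1 of the 9 libraries (edgeR adjusted p up to 0.0914). That of Akt1 was lost when p52Ki replicate 2, 3 or 5 or WT replicate 1 or 2 was left out (up to 0.0778), that of Ywhaq for WT replicate 4 (0.0541), and that of Itpr2 for each library but p52Ki replicate 4 (up to 0.106). The list had 3 genes lower without p52Ki replicate 2, 3 or 5 or WT replicate 1, 2 or 4.

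Of 11 survival receptors and coreceptors of B cells, 10 were tested, 4 rose and 0 fell, with a median of 0.33. Cd40, the receptor for T cell help, stood at 177, 215, 187, 167 and 209 CPM in p52Ki, against 103, 104, 88.7 and 72.9 CPM in WT, without overlap (log2 fold change 1.05 ± 0.16, edgeR adjusted p = 0.00387). Cd79a, a signalling chain of the B cell receptor, Il2rg, the common cytokine receptor chain, and Tnfrsf13b, or TACI, rose by 0.85 ± 0.16, 0.74 ± 0.15 and 0.54 ± 0.14 (edgeR adjusted p = 0.00906, 0.0132 and 0.0377). Tnfrsf13c, the BAFF receptor through which resting B cells keep BCL2 family survival signals, was at 835 CPM in p52Ki and 746 CPM in WT (0.16 ± 0.13, edgeR adjusted p = 0.527), and is named after its value was seen. The call of Tnfrsf13b was lost when p52Ki replicate 1, 2 or 3 or any WT library was left out (edgeR adjusted p up to 0.0909). At an unadjusted p under 0.05, 6 of these genes were higher and 1 lower. The lower gene was Il21r, named after its values were seen. It averaged 364 ± 44.3 CPM in p52Ki and 498 ± 49.3 CPM in WT, without overlap (-0.45 ± 0.13, edgeR adjusted p = 0.0521). DESeq2 called 6 higher and 1 lower, limma-trend 5 higher and 1 lower, and limma-voom 4 higher and 0 lower.

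**Figure D4:**
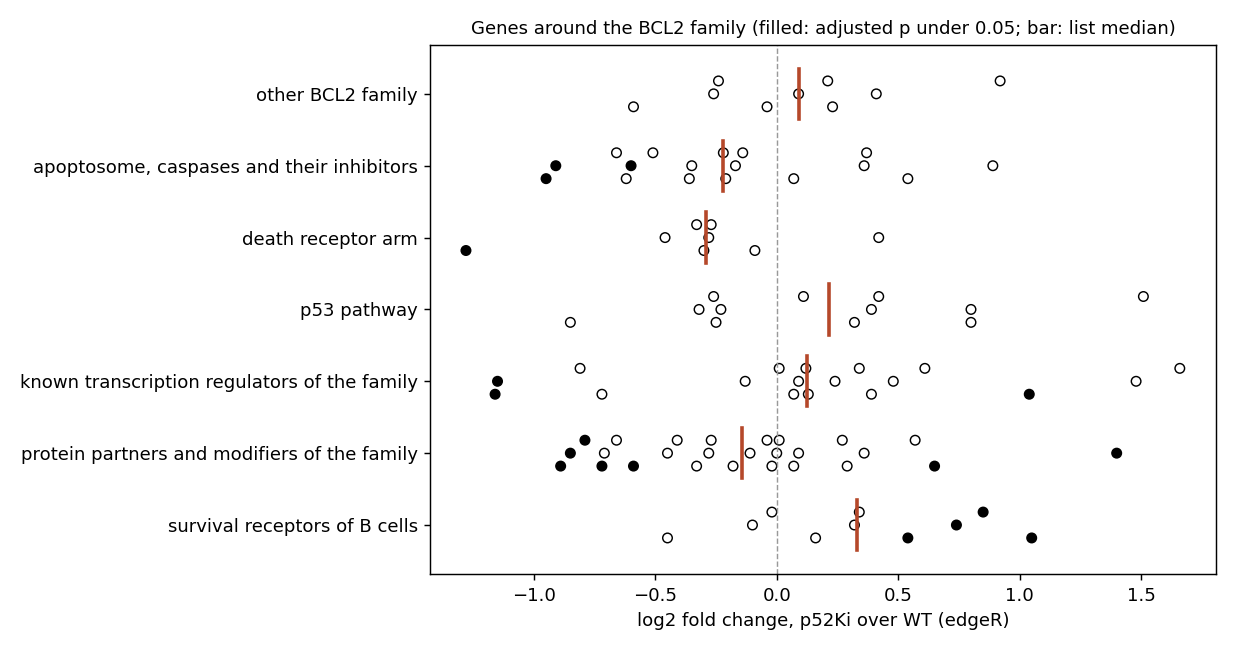
Log2 fold change, p52Ki over WT, of each tested gene in 7 lists around the BCL2 family, 1 point per gene, filled where edgeR's adjusted p was under 0.05, with the list median as a bar. Filled points stand on the lower side for 3 apoptosome, caspase and inhibitor genes and, in the death receptor arm, for Fas alone. They stand on the higher side for 4 survival receptors and on both sides for regulators and partners. The medians run from -0.29 to 0.33. Among all genes tested, 4.49% were called higher and 4.04% lower.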

How the data were processed

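Per the labels' protocols, cDNA was made from low amounts of total RNA by SMART-Seq v2 and Nextera XT, which does not mark strand, and sequenced as paired reads. The reads carry no molecular identifiers, and the floors given for 0 counts cover counting error only. The 95% intervals come from the edgeR fit and also hold the spread between libraries. The tools named, per the submitters' processing notes, are HISAT2 2.1.0, SAMtools 1.8 and, for counting, featureCounts from Subread 1.6.2, on GRCm38. No source used here gives the annotation release, strand setting or handling of shared reads. As deposited by the authors, the files hold raw counts for 55536 genes and log2 CPM for 12849 genes. The deposited log2 values and edgeR's log CPM (TMM, prior count 2) differed by at most 4.97e-14.

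Counts were fitted in R 4.3.3 with edgeR 4.0.16 (filterByExpr, TMM, robust quasi-likelihood F test, no covariate, all 9 libraries). Benjamini-Hochberg adjustment of the two-sided p-values ran over all 12849 tested genes. The SE of a log2 fold change was taken as its size divided by the root of F. CPM per kilobase uses the union of exons of GENCODE M21 (GRCm38). The alternatives were DESeq2 1.42.0 and its size factors, limma 3.58.1 (voom with quality weights, and trend on the deposited log2 values), other filters, no immunoglobulin and T cell receptor genes, a GC and length offset, thinning to 4492160 counts, the replicate number as a block, and each library left out. The test was also run on simulated counts with 200 changed genes.

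The family members and the 7 lists around them were chosen with earlier results of these data known, and no list was tested as a set. All called genes of a list were named, up to 6, or else the 2 of smallest p. Ddit3 was left out because 2 rows carry its name.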

Additional observations from a re-analysis of the deposited data

Results flagged for a closer look

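3 values lay apart from the rest of their genotype by Dixon's criterion at the 95% level, among 64 combinations of a named gene and a genotype. Chance flags about 1 in 20 such groups. Bcl2l11 was at 22.6 CPM in p52Ki replicate 5, the library of lowest depth, where the next lowest p52Ki library had 41.1 CPM. Leaving that library out, the log2 fold change of Bcl2l11 was -0.20, which did not pass either (edgeR adjusted p = 0.696). Tnfrsf13b was at 267 CPM in WT replicate 4, where the next lowest WT library had 357 CPM. Ywhaq was at 209 CPM in p52Ki replicate 1, where the next lowest p52Ki library had 274 CPM.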

How the results depend on the processing

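Bcl2 was higher in p52Ki under all 20 alternatives, and the log2 fold change of Bcl2 ran from 2.09 to 2.87. Its call held under 18 of them, including each library left out (edgeR adjusted p 0.0139 to 0.0429), and was lost with the replicate number as a block (2.56, edgeR adjusted p = 0.0704) and with the block and the GC and length offset together (2.47, edgeR adjusted p = 0.0733). No pairing by number showed in the values. Same-numbered libraries correlated at -0.042 to -0.009 in their deviations from the genotype means over 4 pairs. Of 4 WT libraries, 0 correlated best with their own number. The labels state no pairing, and so few libraries cannot settle whether the samples were paired. No member changed direction under any alternative it could be fitted in. The range was 0.26 to 0.87 for Bcl2l1, 0.35 to 1.03 for Bmf, -2.19 to -0.95 for Bbc3 and -1.17 to -0.51 for Bak1. Bcl2a1b, Bbc3 and Bak1 had no value under the filter of 10 CPM. The number of members called was 2 with the GC and length offset, where Bax passed, 0 with the replicate block alone or with the offset, and 1 to 2 with each library left out. Of all genes, 2042 were called by DESeq2, 129 with the block, 150 with the block and offset, and 625 to 1108 with each library left out (651, 625 and 716 leaving out p52Ki replicate 1, 3 or 5, and 714 and 711 leaving out WT replicate 1 or 4). The share of calls higher in p52Ki was 52.6% as reported, 75.2% with the block and 73.3% with the block and offset.

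Counts of calls in the lists moved as follows, given as higher or lower in p52Ki. With DESeq2 other BCL2 family genes had 1 higher and 1 lower, apoptosome and caspase genes 1 higher, transcription regulators 3 higher, and survival receptors 1 lower, as also with limma-trend. After thinning, 1 other BCL2 family gene was higher. With no filter, 1 apoptosome gene was lower and 1 partner gene higher, and with the offset or limma-voom 1 partner gene was higher. With the block, apoptosome and death receptor genes had 0 lower, regulators 1 lower, partners 0 higher and 1 lower, and survival receptors 1 higher. With the block and offset, the same lists had 0 lower, 0 lower, 0 lower, 0 higher and 0 lower, and 1 higher. With each library left out, lower calls ran from 0 to 1 for other BCL2 family genes, 0 to 2 for apoptosome genes and 3 to 4 for partners, and higher calls from 1 to 2 for regulators, 1 to 2 for partners and 3 to 6 for survival receptors. With the longest transcript as length, 14 of 20 places in the order of levels per kilobase stayed as given. Bbc3, Bak1 and Bcl2a1b rest on at most 253 reads in a genotype. Bcl2 rests on 227 reads in WT, beside 1228 in p52Ki. With libraries thinned to the smallest, the SE of the log2 fold change of Bbc3 was 1.14, beside 1.19 as reported, that of the log2 fold change of Bak1 0.74, beside 0.70, and that of the log2 fold change of Bcl2a1b 0.54, beside 0.53.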
